A study of Homo sapiens with 6 samples.

Results

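The tumour necrosis factor (TNF) superfamily was followed through RNA-seq of Raji cells with raised IRF4. The genes were taken by name, 19 receptors and 15 ligands, and all 34 were found by Entrez identifier among the 23459 rows of the count table. Raji is an established human B cell line, grown from a Burkitt's lymphoma and classed by the labels as derived from the germinal centre (GC). IRF4-overexpressing cells (3 libraries) carried human IRF4 cDNA in a lentiviral vector, and control cells (3 libraries) carried the same kind of vector empty. Infection lasted 5 days in both groups, and puromycin selection at 3 µg/ml followed for 7 days, so all cells compared were transduced and drug-selected. Nothing in the labels says whether the replicates were separate infections, so the spread behind every p-value is that of these libraries and may be technical alone. IRF4 is a regulator of B cell activation and of plasma cell formation, and the comparison asks how raising it changes a germinal centre-type cell.

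TNF superfamily ligands are mostly membrane-bound trimers, and some are cut off and act in solution. Their receptors recruit TRAF adaptors that feed the NF-kB pathway, or, where they carry a death domain, adaptors that can start apoptosis. In B cells CD40 receives help from T cells, BAFF (TNFSF13B) keeps resting cells alive through its receptor TNFRSF13C, and TNFRSF17 serves plasma cells.

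Library totals ran from 27681979 to 46210702 counts. In IRF4-overexpressing replicates 1, 2 and 3, IRF4 had 150, 120 and 125 CPM (counts scaled to the library size), against 1.02, 1.38 and 1.37 CPM in control replicates 1, 2 and 3, as the labels say. The 9 B cell markers summed to 2890 to 3060 CPM in IRF4-overexpressing and 2960 to 3060 CPM in control libraries, and all 9 were present. Within the groups, the libraries varied along 1 shared axis, which took up 83.4% of the within-group variance of log2 CPM. IRF4-overexpressing replicates 2 and 3 with control replicate 1 lay on one side, and IRF4-overexpressing replicate 1 with control replicates 2 and 3 on the other. The scores were -0.747, 0.394 and 0.352 for IRF4-overexpressing replicates 1, 2 and 3, and 0.322, -0.101 and -0.221 for control replicates 1, 2 and 3. IRF4-overexpressing replicate 1 thus lay farthest out. Centring within each group places libraries of both groups on both sides by construction. Values within a side are given below as descriptions: the sides were read from these counts, and each leaves 1 group with a single library, so p-values of such fits are too small. The 10 myeloid markers summed to 10.7 to 13.7 CPM in IRF4-overexpressing and 4.95 to 5.17 CPM in control libraries, through ITGAM, MS4A7 and CSF1R, while MPO and FCGR3A were at 0 in all libraries. The 10 T and NK markers summed to 0.497 to 0.567 and 0.186 to 0.465 CPM in these groups, with CD2, CD7, CD8A and GNLY at 0. The 7 markers of kidney epithelium, from which the virus-packaging 293T line derives, summed to 0.32 to 0.837 and 0.0996 to 0.274 CPM, with CDH1 as the main part in the IRF4-overexpressing libraries (9, 29 and 16 counts, against 3, 0 and 2 in control libraries) and EPCAM, KRT18, KRT19 and LHX1 at 0. The part of these markers in the results below was not tested.

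Promoters of some members are shown first. RefSeq windows of GRCh38.p14 were found for 24 of the 34 members (32 windows), and the 250 bases before the start were searched on both strands for 3 motifs. The first was GAAA, 2 free bases and GAAA, the core of the interferon-stimulated response element. The second was GGAA, 2 free bases and GAAA, the composite element of ETS factors and IRF4. The third was GGG, 2 free bases and TTTCC, a form of the NF-kB site. The 5 windows below include those of TNFSF10 and TNFRSF9, the only ones with a match among the 6 called members with a window. TNFRSF8, TNFRSF14, FAS and TNFSF4, also called, had no match, and CD40 had no window. For comparison, a window with the NF-kB form is shown for LTB and one with the interferon element for TNFSF9. Both genes were tested and not called by edgeR, but LTB lay near the threshold and was called by DESeq2, as given below. The ETS-IRF element has no such comparison, since TNFSF10 was the only member with it. The window of TNFSF13B is also shown, although this gene had too few counts to be tested and its response is not known. Capitals mark the motif matches, and every sequence runs 5′ to 3′ in the direction of the gene.
TNFSF10, chr3:172523431-172523680, minus strand: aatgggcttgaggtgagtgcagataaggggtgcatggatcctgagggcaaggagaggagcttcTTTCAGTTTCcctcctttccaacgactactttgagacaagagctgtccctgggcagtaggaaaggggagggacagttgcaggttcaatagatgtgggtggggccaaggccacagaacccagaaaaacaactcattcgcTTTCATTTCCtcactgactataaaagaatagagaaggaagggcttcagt
TNFRSF9, chr1:7940840-7941089, minus strand: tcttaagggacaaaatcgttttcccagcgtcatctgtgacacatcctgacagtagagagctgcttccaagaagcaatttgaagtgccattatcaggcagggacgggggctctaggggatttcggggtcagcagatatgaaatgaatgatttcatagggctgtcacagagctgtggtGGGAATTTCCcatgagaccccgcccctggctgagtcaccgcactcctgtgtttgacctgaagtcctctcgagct
LTB, chr6:31582426-31582675, minus strand: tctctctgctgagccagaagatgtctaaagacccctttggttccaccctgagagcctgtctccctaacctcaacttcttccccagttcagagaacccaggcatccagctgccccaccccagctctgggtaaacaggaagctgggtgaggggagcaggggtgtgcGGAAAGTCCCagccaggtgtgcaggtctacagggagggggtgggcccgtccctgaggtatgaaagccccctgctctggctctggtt
TNFSF13B, chr13:108269468-108269717, plus strand: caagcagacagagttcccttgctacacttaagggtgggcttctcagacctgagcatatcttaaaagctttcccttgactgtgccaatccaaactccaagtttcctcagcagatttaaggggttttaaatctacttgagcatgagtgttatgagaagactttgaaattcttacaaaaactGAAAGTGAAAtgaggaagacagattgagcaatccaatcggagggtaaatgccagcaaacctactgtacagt
TNFSF9, chr19:6530776-6531025, plus strand: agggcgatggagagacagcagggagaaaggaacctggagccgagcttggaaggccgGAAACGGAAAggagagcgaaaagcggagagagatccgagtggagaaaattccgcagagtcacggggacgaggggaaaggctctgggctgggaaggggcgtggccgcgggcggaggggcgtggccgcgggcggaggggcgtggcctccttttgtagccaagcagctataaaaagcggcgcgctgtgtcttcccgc

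In the TNFSF10 window the first match is an interferon element read on the opposite strand, 187 to 178 bases before the start. The second is an ETS-IRF element, also on the opposite strand, 49 to 40 bases before the start. The TNFRSF9 window holds an NF-kB form 74 to 65 bases before the start. The LTB window has the same motif on the opposite strand. The TNFSF13B and TNFSF9 windows each hold an interferon element, 71 to 62 and 194 to 185 bases before the start. Across all 35116 windows, the interferon element was present in 3.02%, the ETS-IRF element in 2.41% and the NF-kB form in 1.73%. Among the 32 windows of members they were present in 5, 1 and 3, which belong to 5, 1 and 2 genes. Of these genes, only TNFSF10, with both the interferon and the ETS-IRF element, and TNFRSF9, with the NF-kB form, were called below. FASLG and TNFRSF1B were the remaining members with an interferon element. No 2 matches overlapped within a printed window. These are descriptions of letters, and no binding was measured.

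With IRF4 raised, 7 of the 34 members rose and 0 fell. They were 5 receptors, TNFRSF8 (3.16-fold), TNFRSF9 (2.86-fold), TNFRSF14 (2.04-fold), FAS (1.70-fold) and CD40 (1.41-fold), and 2 ligands, TNFSF10 (17.6-fold) and TNFSF4 (2.38-fold). A further 14 members were tested and not called, and 13 had too few counts to be tested, 8 at most in any library. Across the whole table, 2.98% of the 12079 genes tested were called higher and 0.182% lower (edgeR quasi-likelihood test, Benjamini-Hochberg adjusted p under 0.05). At an unadjusted p under 0.05 by edgeR, 9 members were higher and 0 lower, against 1368 and 988 of all 12079 genes. DESeq2 called 8 members higher and 0 lower, against 561 and 200 of all 13728 genes it tested. The 21 tested members had a median log2 fold change of 0.45, against 0.01 over all genes tested. Passing the low-count filter was not independent of the group: TNFSF10 passed it through the IRF4-overexpressing libraries alone, and TNFRSF8 passed in all 3 of these and in 1 control library. In bulk RNA, more cells with a transcript and more transcript per cell cannot be told apart.

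**Figure D1:**
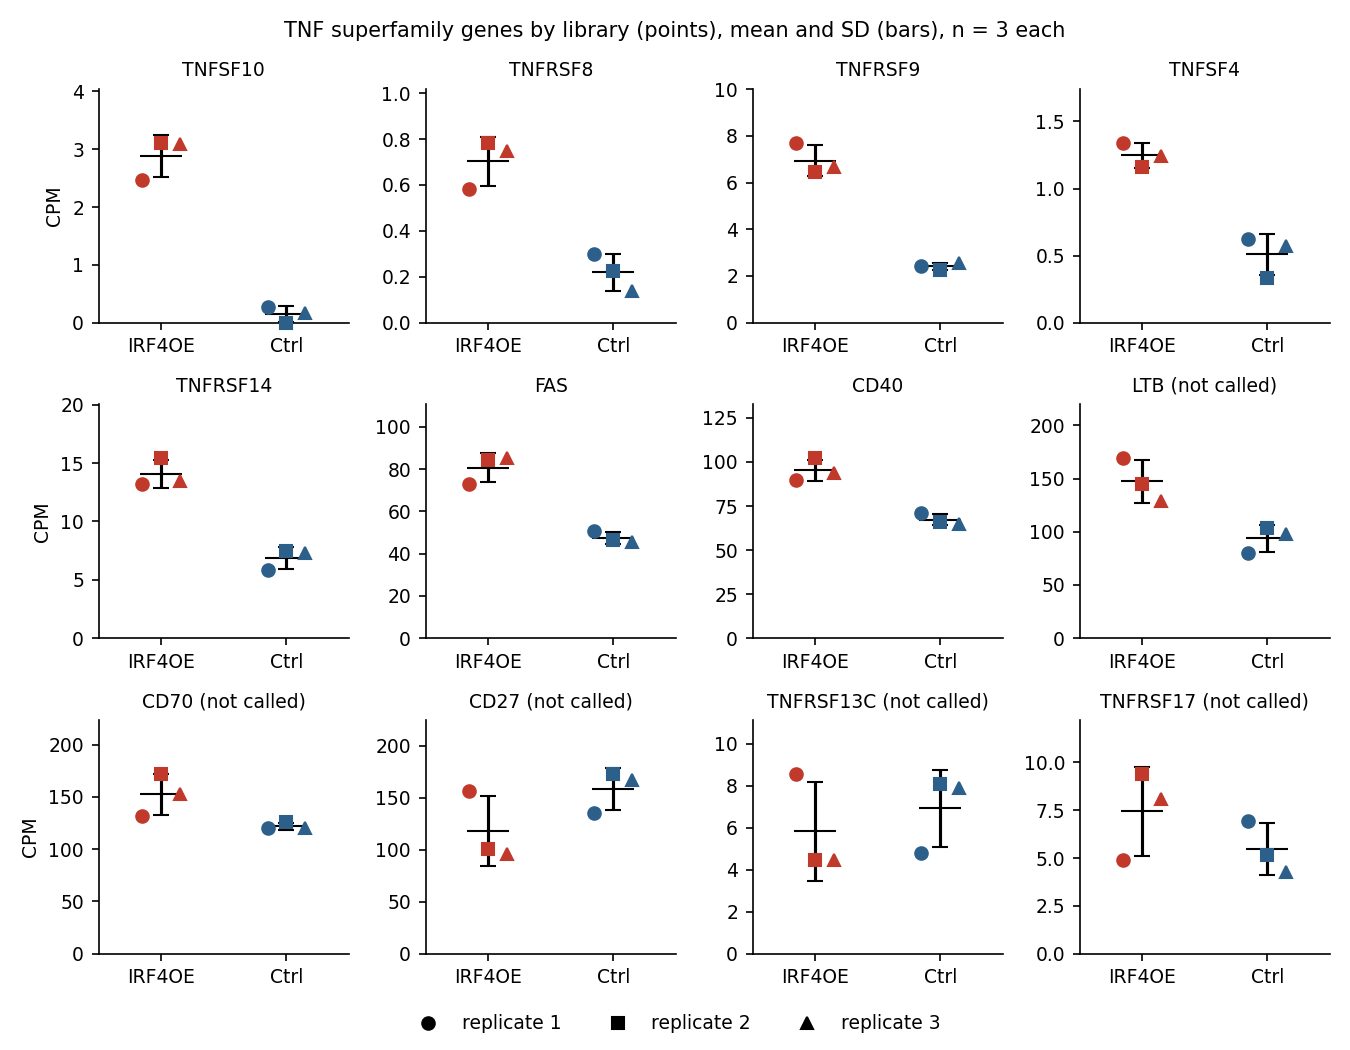
CPM of 12 members in the 3 IRF4-overexpressing (IRF4OE, red, left) and 3 control (Ctrl, blue, right) libraries, with 1 marker shape per replicate and bars for the mean and SD. For the 7 called genes all red points lie above all blue ones, and for CD27, TNFRSF13C and TNFRSF17 the groups overlap.

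The ligand TNFSF10 (TRAIL, Entrez gene 8743), which can trigger apoptosis through its death receptors and is known as an interferon-induced gene, showed the largest rise of any member tested. IRF4-overexpressing replicates 1, 2 and 3 held it at 2.47, 3.11 and 3.09 CPM, against 0.274, 0 and 0.164 CPM in control replicates 1, 2 and 3. The groups lay far apart, on 349 counts against 17. The log2 fold change came to 4.14, with an SE of 0.50 (edgeR adjusted p = 0.00805). Both of its death receptors were detected in the same libraries and were not called. TNFRSF10B averaged 82.7 ± 8.87 CPM in IRF4-overexpressing and 73.3 ± 2.56 CPM in control libraries (SD, n = 3 each), which is 0.17 on the log2 scale (SE 0.11, edgeR adjusted p = 0.361). TNFRSF10A averaged 31.3 ± 2.48 and 31.4 ± 1.60 CPM in these groups (log2 fold change -0.003, SE 0.10). Within the side of control replicate 1, TNFRSF10B and TNFRSF10A had log2 fold changes of 0.12 and 0.12, and within the other side 0.35 and -0.11. TNFRSF10B overlaps RHOBTB2, which held 10161 counts in IRF4-overexpressing and 15296 in control libraries, against 9809 and 7598 of TNFRSF10B itself, and reads of the shared stretch could have gone to either gene.

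TNFSF4 (OX40 ligand), which costimulates T cells, was at 1.34, 1.16 and 1.24 CPM in IRF4-overexpressing libraries and at 0.622, 0.335 and 0.574 CPM in control libraries. All IRF4-overexpressing values were above all control values, at low counts of 43 to 60 against 9 to 25. On the log2 scale the rise was 1.25 (SE 0.25, edgeR adjusted p = 0.0485). Its receptor TNFRSF4 had 6 counts in each group in sum and was not tested.

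Among the receptors, TNFRSF9 (4-1BB, Entrez gene 3604), a costimulatory receptor best known from activated T cells, was at 7.70, 6.45 and 6.67 CPM in IRF4-overexpressing libraries and at 2.41, 2.27 and 2.57 CPM in control libraries. The groups were separated by more than their spread (log2 fold change 1.52, SE 0.13, edgeR adjusted p = 0.00234). TNFRSF8 (CD30), a marker of activated lymphocytes, was at 0.581, 0.783 and 0.746 CPM against 0.299, 0.223 and 0.137 CPM in control libraries. This rests on 20 to 36 counts per IRF4-overexpressing library and 5 to 12 per control library (log2 fold change 1.66, SE 0.32, edgeR adjusted p = 0.0475). TNFRSF14 (HVEM), which binds LIGHT (TNFSF14) and the inhibitory receptor BTLA, was at 13.2, 15.4 and 13.5 CPM in IRF4-overexpressing libraries, against 5.83, 7.51 and 7.33 CPM in control libraries. The lowest IRF4-overexpressing value was well above the highest control value (log2 fold change 1.03, SE 0.14, edgeR adjusted p = 0.0129).

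FAS (CD95, Entrez gene 355), the death receptor that helps to remove germinal centre B cells, was at 72.9, 84.2 and 85.1 CPM in IRF4-overexpressing libraries, against 50.8, 46.5 and 45.4 CPM in control libraries. Its groups did not overlap (log2 fold change 0.76, SE 0.10, edgeR adjusted p = 0.012). CD40 (Entrez gene 958), the receptor for T cell help, was at 90.0, 102 and 93.5 CPM against 70.8, 66.2 and 64.7 CPM in control libraries. This was the smallest of the 7 called rises (log2 fold change 0.50, SE 0.09, edgeR adjusted p = 0.0389). The ligands of both, FASLG and CD40LG, had 0 counts in all libraries, which allows up to 0.0251 CPM in the IRF4-overexpressing and 0.0289 CPM in the control group (3 counts over each group, counting error only). FAS overlaps the genes ACTA2 and FAS-AS1, which held 415 and 36 counts in IRF4-overexpressing and 281 and 19 counts in control libraries in sum, few beside the 9736 and 4950 of FAS.

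**Figure D2:**
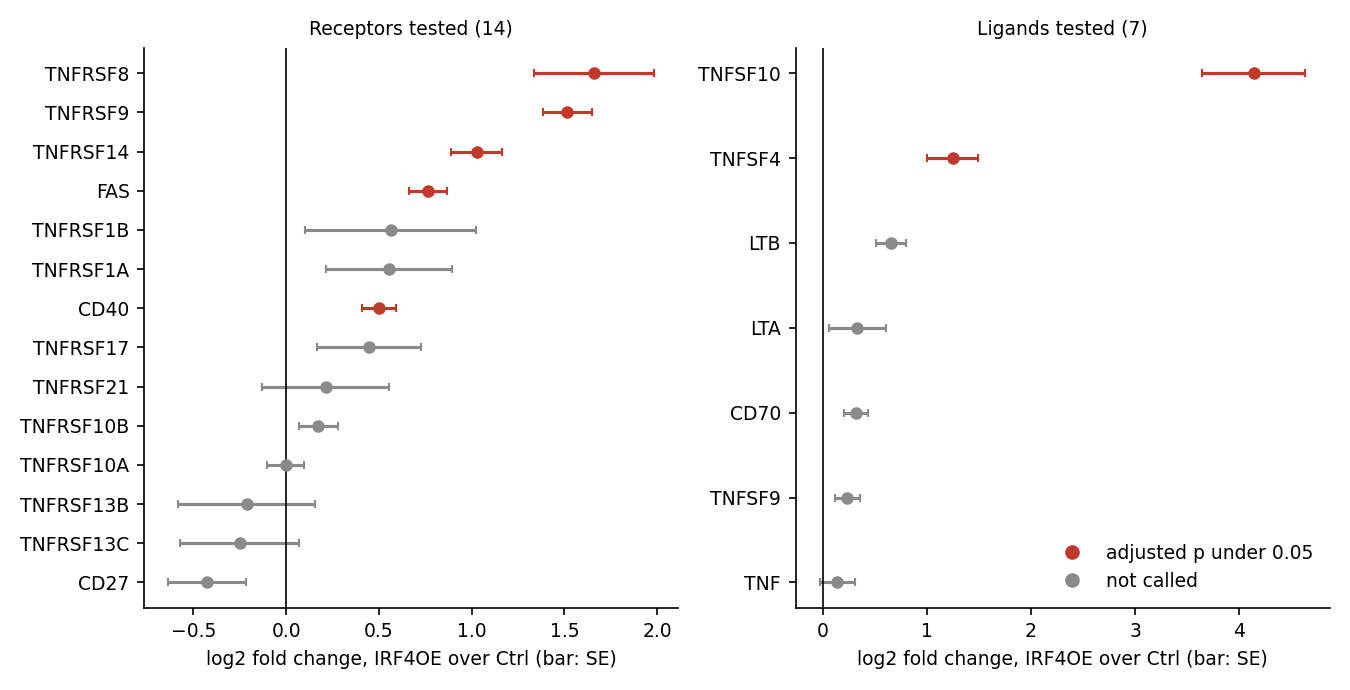
Log2 fold change (IRF4-overexpressing over control) of the 14 receptors and 7 ligands that were tested, with its SE, where red marks an adjusted p under 0.05. TNFSF10 stands at 4.14 and the other called genes between 0.50 and 1.66, and CD27 is the lowest at -0.43.

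Of the 14 members tested and not called, 10 had positive and 4 negative log2 fold changes. LTB (lymphotoxin beta), which joins LTA in a membrane trimer, came nearest to the threshold. It was at 169, 145 and 129 CPM in IRF4-overexpressing libraries and at 79.8, 104 and 98.1 CPM in control libraries. The groups did not overlap (log2 fold change 0.65, SE 0.14, edgeR adjusted p = 0.0708), and DESeq2 called it higher (adjusted p = 0.00957). LTA was at 29.8, 18.0 and 18.1 CPM against 12.3, 21.4 and 18.8 CPM in control libraries, and TNF at 13.7, 9.34 and 10.0 CPM against 9.09, 10.3 and 10.5 CPM. Both overlapped between groups (log2 fold changes 0.33 and 0.14, edgeR adjusted p = 0.473 and 0.608), with IRF4-overexpressing replicate 1 the highest library for each. Within the side of control replicate 1 the log2 fold changes of LTB, LTA and TNF were 0.77, 0.55 and 0.09, and within the other side 0.78, 0.61 and 0.43. With a term for the side, LTB and LTA passed at 0.76 and 0.57 (edgeR adjusted p = 0.00202 and 0.0118) and TNF, at 0.24, did not (0.15), on sides read from the same counts. The remaining ligands were more even: CD70, the ligand of CD27, was at 132, 172 and 153 CPM against 120, 126 and 120 CPM, without overlap (log2 fold change 0.32, SE 0.12, edgeR adjusted p = 0.207). TNFSF9 (4-1BB ligand) was at 30.5, 38.0 and 38.2 CPM against 28.3, 32.2 and 30.1 CPM (log2 fold change 0.24, SE 0.12, edgeR adjusted p = 0.31). In all, 10 of the 21 tested members lay higher and 0 lower in every IRF4-overexpressing library than in any control library, against 13.5% and 11.9% of all genes tested.

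Receptors that mark B cell stages varied within the groups along the library axis. CD27, a memory and germinal centre marker, had 157, 101 and 96.2 CPM in IRF4-overexpressing replicates 1, 2 and 3, against 135, 173 and 167 CPM in control replicates 1, 2 and 3. TNFRSF13C (BAFF receptor) was at 8.57, 4.46 and 4.45 CPM against 4.81, 8.11 and 7.88 CPM. TNFRSF13B (TACI), a receptor for BAFF and APRIL, was at 4.53, 2.21 and 2.18 CPM against 2.19, 3.98 and 4.16 CPM. For TNFRSF13C and TNFRSF13B, IRF4-overexpressing replicate 1 sat with control replicates 2 and 3, and control replicate 1 with the remaining libraries. TNFRSF17 (BCMA) took the reverse order, at 4.88, 9.40 and 8.08 CPM against 6.95, 5.17 and 4.29 CPM. Pooled log2 fold changes were -0.43 for CD27, -0.25 for TNFRSF13C, -0.21 for TNFRSF13B and 0.45 for TNFRSF17 (edgeR adjusted p = 0.299, 0.638, 0.73 and 0.373). Within the side of control replicate 1 they were -0.46, -0.12, -0.01 and 0.32, and within the other side -0.08, 0.14, 0.19 and 0.09. Without IRF4-overexpressing replicate 1, where the group mixes with the axis, CD27, TNFRSF13C and TNFRSF17 passed at -0.70, -0.64 and 0.66 (edgeR adjusted p = 0.0017, 0.043 and 0.0204), as did CD70, LTB and TNFSF9 at 0.40, 0.53 and 0.33 (0.0038, 0.00616 and 0.0179). CD27 overlaps CD27-AS1 and TAPBPL in the annotation, and the strand setting of the counting is not given in the sources used here.

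Among the low receptors, 3 overlapped between the groups. TNFRSF1A and TNFRSF1B, the receptors of TNF, were at 1.05 to 1.54 and 0.189 to 0.436 CPM in IRF4-overexpressing libraries and at 0.473 to 1.15 and 0.124 to 0.298 CPM in control libraries (edgeR adjusted p = 0.365 and 0.469). TNFRSF21 (DR6), a receptor with a death domain, was at 1.05 to 2.65 CPM against 1.23 to 1.70 CPM (edgeR adjusted p = 0.707). Within the side of control replicate 1, TNFRSF1A, TNFRSF1B and TNFRSF21 had log2 fold changes of 1.20, 1.20 and -0.22, and within the other side 0.58, 0.65 and 0.86.

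Of the 13 members with too few counts, LTBR, TNFSF12, CD40LG and FASLG had 0 counts throughout. LTBR, the lymphotoxin beta receptor, is typical of stromal and myeloid cells. TNFSF13B (BAFF) had 8, 4 and 5 counts in IRF4-overexpressing libraries and 1, 1 and 0 in control libraries, a ratio of 7.38 with an exact 95% counting interval of 1.75 to 65.9. TNFRSF11A (RANK), the receptor of TNFSF11, had 4, 5 and 3 counts against 0, 1 and 1, a ratio of 5.21 (1.16 to 47.9). Neither passed in a fit without the filter (edgeR adjusted p = 0.218 and 0.304). TNFSF13 (APRIL) had 17 counts against 13, TNFRSF25 11 against 15 and TNFSF8 7 against 4, and these intervals all included equal levels. TNFRSF18, TNFSF11 and TNFSF14 had at most 3 counts per group. TNFSF12 and TNFSF13 share a read-through gene, TNFSF12-TNFSF13, which had 15 counts against 11, so reads of these 3 may have been split.

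Levels of different genes were set side by side per length, as CPM per kilobase (RPKM), using the deposited gene width. CD70 and its receptor CD27 stood highest, at 120 ± 15.9 and 89.4 ± 25.5 RPKM in IRF4-overexpressing libraries and 96.3 ± 2.88 and 120 ± 15.7 RPKM in control libraries (SD, n = 3 each). Their order differs between the groups, and in the IRF4-overexpressing group the gap is about the size of the SDs. CD40 came next, at 29.5 ± 1.89 and 20.8 ± 0.974 RPKM in these groups. TNFSF9, TNFRSF10B and TNFRSF10A followed, between 17.9 and 21.4 RPKM in IRF4-overexpressing and 17.1 and 18.1 RPKM in control libraries, without separation beyond their spread. The called TNFRSF9 reached 1.16 ± 0.111 RPKM, against 0.404 ± 0.0252 RPKM in control libraries, far below its ligand TNFSF9. TNFSF10 reached 0.942 ± 0.118 RPKM, against 0.0476 ± 0.045 RPKM in control libraries, so the largest relative rise remained at a low level per length. TNF, LTA and LTB need care: their deposited widths of 13174, 11235 and 7146 bases are 7.86, 7.46 and 7.97 times their longest GENCODE v29 coding transcripts, against a median of 1.06 for the other 31 members (range 0.238 to 3.12). These 3 genes neighbour each other in the MHC on chromosome 6. LTB averaged 20.7 ± 2.80 RPKM in IRF4-overexpressing and 13.1 ± 1.74 RPKM in control libraries by the deposited width. By the transcript length it averaged 165 and 105 RPKM, in the range of CD70 (166 and 134 RPKM) and CD27 (88.2 and 119 RPKM). The order of other members depends on the length too. FAS, with a width 2.61 times its transcript, averaged 12.1 and 7.11 RPKM by width and 31.5 and 18.6 RPKM by transcript. TNFRSF10A, with a width 0.645 times its transcript, averaged 17.9 RPKM in both groups by width and 11.5 and 11.6 RPKM by transcript. Fold changes do not use the width. The sources used here do not say how reads that match more than 1 MHC copy of the reference were counted, so the CPM of these 3 genes are uncertain as levels too.

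Set by ligand and receptor, no called gene had a called partner among these 34 genes. The partners TNFRSF4, TNFSF8, TNFSF14, CD40LG and FASLG had too few counts to be tested and could not have been called. TNFSF10 rose while TNFRSF10A and TNFRSF10B were not called. TNFRSF9 rose while TNFSF9 was not called. TNFRSF14 rose while its ligand TNFSF14 had 3 counts against 0, and LTA, which also binds TNFRSF14, was not called. CD40 and FAS rose without a count for CD40LG or FASLG. TNFRSF8 rose while TNFSF8 had at most 4 counts in a library. No difference between partners was tested.

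**Figure D3:**
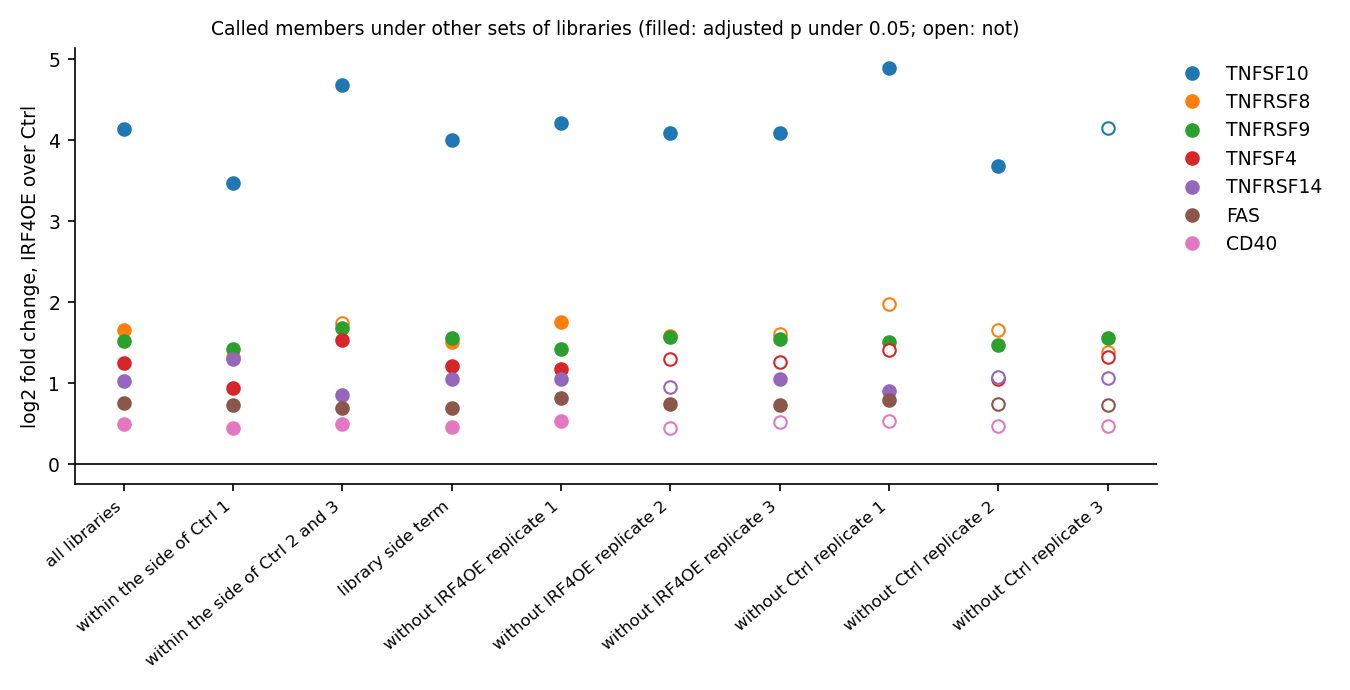
Log2 fold changes of the 7 called members (IRF4-overexpressing over control) in all libraries, within each side of the library axis, with a term for the side, and without each library in turn. Filled points passed an adjusted p of 0.05 and open points did not, and every point is above 0.

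All 7 rises kept their direction without any 1 library, while 6 of the 7 calls did not hold in every such fit. TNFRSF9 passed in all 6 fits without 1 library (log2 fold change 1.42 to 1.57). TNFSF10 passed in 5 of the 6 (3.68 to 4.90) and missed without control replicate 3 (edgeR adjusted p = 0.0547). FAS passed in 4 (0.73 to 0.82) and missed without control replicate 2 or 3 (0.0693 and 0.0823). TNFRSF14 passed in 3 (0.91 to 1.08) and missed without control replicate 2 (0.0611), control replicate 3 (0.0657) or IRF4-overexpressing replicate 2 (0.057). CD40, TNFRSF8 and TNFSF4 passed only in the fit without IRF4-overexpressing replicate 1. Without each other library, their adjusted p ran from 0.0857 to 0.218, 0.0857 to 0.174 and 0.125 to 0.177, at log2 fold changes of 0.45 to 0.53, 1.39 to 1.98 and 1.05 to 1.41. TNFSF4 also missed with median-ratio size factors (edgeR adjusted p = 0.0517), without the filter (0.0559) and with a filter of 1 CPM in 3 libraries (0.0529). TNFRSF8 missed without the filter (edgeR adjusted p = 0.0504). The filter of 1 CPM in 3 libraries removed TNFRSF8, so it was not tested there. Members called higher numbered 4, 2 and 1 without control replicates 1, 2 and 3, beside 125, 120 and 136 of all genes. They numbered 11, 3 and 4 without IRF4-overexpressing replicates 1, 2 and 3, beside 2436, 153 and 156 of all genes. Without IRF4-overexpressing replicate 1, 2 members were called lower, beside 3071 of all 12226 genes. In each other such fit 0 members and 3 genes were lower. With all libraries, 360 genes were called higher and 22 lower. Within the side of control replicate 1, 12 members were higher and 1 lower, beside 2309 and 3118 of all 12574 genes. Within the other side they numbered 10 and 0, beside 858 and 402 of all 12274 genes, and TNFRSF8 missed there (edgeR adjusted p = 0.0987).

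Of 30 genes that act directly below the receptors, 29 were tested, and 4 rose and 0 fell, against 2.98% and 0.182% of all genes tested. At an unadjusted p under 0.05, 10 were higher and 2 lower, against 1368 and 988 of all 12079, and DESeq2 called 7 and 0. TANK, a TRAF-binding regulator, was at 111, 155 and 169 CPM in IRF4-overexpressing libraries, against 84.4, 69.0 and 67.6 CPM in control libraries (log2 fold change 0.98, SE 0.18, edgeR adjusted p = 0.0371). TRAF1, an adaptor that is itself an NF-kB target and binds TNFRSF9, was at 75.9, 57.4 and 55.3 CPM against 29.8, 37.5 and 36.8 CPM (0.86, SE 0.16, edgeR adjusted p = 0.0378). CYLD, a deubiquitinase that restrains the pathway, was at 98.5, 92.1 and 97.3 CPM against 66.4, 56.1 and 61.4 CPM (0.65, SE 0.10, edgeR adjusted p = 0.0178). RNF31, the catalytic subunit of the linear ubiquitin ligase, was at 74.3, 78.0 and 81.9 CPM against 50.1, 55.6 and 51.6 CPM (0.57, SE 0.09, edgeR adjusted p = 0.0202). Without overlap between the groups, 12 of the 29 lay higher, these 4 among them, and 2 lay lower. Over all genes tested, 13.5% lay higher and 11.9% lower in this way. The median log2 fold change over the 29 was 0.16, against 0.01 over all genes tested. Of this list, 0 genes were called higher without any 1 of the controls or without IRF4-overexpressing replicate 2 or 3. In those fits 120 to 156 of all genes were higher, against 360 with all libraries. Without IRF4-overexpressing replicate 1, 12 were higher and 7 lower, where 2436 and 3071 of all 12226 genes were.

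Further genes of that list were not called, and only some of them lay near the threshold. TNFAIP3 (A20), a brake on NF-kB, was at 67.2, 35.1 and 39.6 CPM in IRF4-overexpressing libraries and at 19.5, 24.8 and 25.6 CPM in control libraries. IRF4-overexpressing replicate 1 stood above the rest (log2 fold change 1.02, SE 0.26, edgeR adjusted p = 0.105). BIRC3, an inhibitor of apoptosis that binds TRAF proteins, averaged 2770 ± 348 CPM in IRF4-overexpressing and 1840 ± 178 CPM in control libraries (SD, n = 3 each; edgeR adjusted p = 0.07). CFLAR, which blocks caspase activation at death receptors, averaged 47.1 ± 5.94 and 33.2 ± 0.984 CPM (edgeR adjusted p = 0.0721). The death-domain adaptor FADD and the caspase CASP8 had log2 fold changes of 0.07 and 0.23 (edgeR adjusted p = 0.711 and 0.242), and RIPK1, the kinase of the TNF receptor complex, had -0.38 (0.13). RBCK1 and TRAF4 had log2 fold changes of 0.35 and 0.34 (edgeR adjusted p = 0.11 and 0.12), and TRAF3 had -0.23 (0.235). These genes were chosen after their values were seen.

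**Figure D4:**
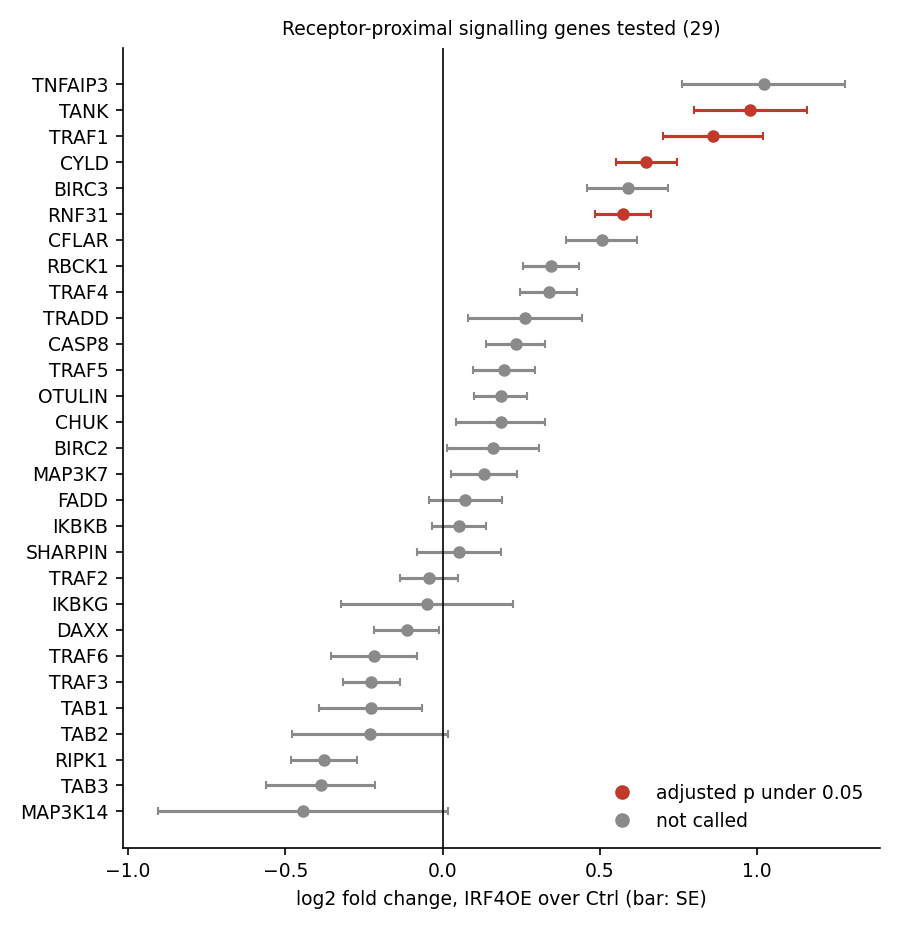
Log2 fold change (IRF4-overexpressing over control) with its SE for the 29 tested genes that act directly below the receptors, where red marks an adjusted p under 0.05. TANK, TRAF1, CYLD and RNF31 passed, at 0.57 to 0.98, while TNFAIP3 at 1.02 had a wider error, and MAP3K14 is the lowest at -0.45.

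The 13 superfamily genes outside the 34 gave 0 calls by edgeR and by DESeq2, with 4 tested and 9 having at most 5 counts in a library, 5 of them 0 throughout. The smallest p belonged to the ligand TNFSF15, the only one with an unadjusted p under 0.05. It was at 7.73, 6.86 and 5.90 CPM in IRF4-overexpressing libraries, against 4.61, 5.69 and 4.81 CPM in control libraries (log2 fold change 0.44, SE 0.15, edgeR adjusted p = 0.189). The next was TNFRSF6B, a soluble decoy that binds FASLG, at 4.91, 3.86 and 5.12 CPM against 4.98, 5.36 and 5.61 CPM (log2 fold change -0.20, edgeR adjusted p = 0.434).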

How the data were processed

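The authors deposited 1 table of raw counts by Entrez gene (whole numbers, neither pooled nor scaled), with 1 column for each of the 6 libraries and 1 gene width. Per the labels' protocols, the libraries were stranded and poly(A)-selected. Per the submitters' processing notes, the builds were mm9 and hg19, and the latter was taken for these human samples. The aligner, counter, annotation and strand setting are not given in the sources used here. Columns named WT are the controls. Symbols came from RefSeq GRCh38.p14 (23308 of 23459 rows matched), promoters from the same tables, and transcript lengths from GENCODE v29.

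The test was edgeR's quasi-likelihood F-test (edgeR 4.0.16 under R 4.3.3), two-sided, with TMM scaling, filterByExpr (minimum count 10) and the group as the only term, over 12079 genes and with Benjamini-Hochberg adjustment over all of them. SEs are the log2 fold change divided by the root of F. CPM used TMM-scaled library sizes. Ratios of low counts carry exact 95% counting intervals. The alternatives included DESeq2 1.42.0. The test was checked on simulated counts drawn independently for each gene. These lacked the shared library axis of the real libraries, so the check does not cover its effect. Figures used matplotlib 3.10.9. The members, lists, alternatives and motifs were chosen with earlier results of these data known. By rule, the genes named were all members, IRF4, and, of each further list, the called genes or else the 2 of smallest p. Further genes below the receptors and single markers were named after their values were seen. 1 gene of the marker lists is not reported here.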

Additional observations from a re-analysis of the deposited data

How the results depend on the processing

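Of 313 recomputed log2 fold changes of the tested members, 246 kept their direction and their side of the threshold, 33 lost a call, 20 gained one and 14 changed sign. All 14 belong to members not called: TNFRSF10A (0.09 with library sizes alone, 0.01 with the stricter filter, 0.12 within the side of control replicate 1, and -0.06 to 0.03 without single libraries), TNFRSF13B (0.09 with the side term and 0.19 within the side of control replicates 2 and 3), TNFRSF13C (0.00 and 0.14 in these), TNFRSF21 (-0.22 within the side of control replicate 1, and -0.22 to 0.48 without single libraries) and TNF (-0.05 to 0.26 without single libraries). The cause was not tested. Members called higher and lower numbered 8 and 0 with DESeq2 or library sizes alone, 6 and 0 with median-ratio size factors, 5 and 0 without the filter or with the stricter one, 9 and 0 with the side term, 12 and 1 within the side of control replicate 1, and 10 and 0 within the other. Without single libraries they numbered 1 to 11 and 0 to 2, genes just below the receptors 0 to 12 and 0 to 7, and all genes 120 to 2436 and 3 to 3071, the highest of each without IRF4-overexpressing replicate 1. Genes below the receptors numbered 7 and 0 with DESeq2 or library sizes alone, 9 and 1 with the side term, and 12 and 7 and 10 and 0 within the sides. Among the remaining superfamily genes 1 was called higher with the side term and within each side. All genes called higher and lower numbered 360 and 22, against 561 and 200 with DESeq2, 503 and 13 with library sizes alone, 709 and 389 with the side term, and 2309 and 3118 and 858 and 402 within the sides. The median over all genes (log2 fold change) was 0.10 with library sizes alone, against 0.01 with TMM. Whether libraries of equal replicate number were prepared together is not known. Their deviations from the group means correlated at -0.742, -0.293 and -0.623. Because 1 axis dominates these deviations, the correlations cannot decide it. With the replicate block 3 genes were called higher and 0 lower, with 0 members and 0 genes below the receptors. By rank among the members in IRF4-overexpressing libraries, LTB moved to 2 by CPM or transcript length, against 5 by the deposited width. Depth limits the members of few counts: for TNFSF13B, at 17 counts against 2, the counting interval of the ratio runs from 1.75 to 65.9.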

Other observations

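Several members are neighbours in the RefSeq gene order (GRCh38.p14, names only), and called and uncalled genes stood side by side. On chromosome 1, TNFRSF8, which rose, is next to TNFRSF1B, which was not called, and TNFSF4, which rose, is separated by 1 protein-coding gene from FASLG, which had 0 counts. On chromosome 12, LTBR with 0 counts lies next to CD27, at 118 ± 33.6 CPM in IRF4-overexpressing and 159 ± 20.8 CPM in control libraries (SD, n = 3 each). On chromosome 19, TNFSF9, CD70 and TNFSF14 lie in a row. TNFSF9 and CD70 had log2 fold changes of 0.24 and 0.32, and TNFSF14 had 3 counts in IRF4-overexpressing and 0 in control libraries. On chromosome 6, LTA, TNF and LTB lie in a row and had log2 fold changes of 0.33, 0.14 and 0.65. No difference between neighbours was tested.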
